A study of Mus musculus with 4 samples.

Results

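Keratins are the intermediate filament proteins of epithelial cells. A filament is built from pairs of 1 type I and 1 type II keratin, so that the types are needed in matched amounts, and the genes of each type lie largely in a cluster of their own. Krt8 (type II) and Krt18 (type I) form the filaments of simple, single-layered epithelia, with Krt7 and Krt19 as further members of that group. In the mouse embryo the trophectoderm, the outer epithelium of the blastocyst from which the placenta grows, is the first tissue to build such filaments, and trophoblast stem cells (TSCs) are its cultured counterpart.

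The RNA levels of 9 keratin genes were read in 4 samples of mouse stem cells: Krt7 and Krt8 of type II, and Krt18, Krt19, Krt17, Krt42, Krt14, Krt20 and Krt23 of type I. The genes were given by name and found by their symbols among the 37620 gene rows of the count tables. Poly-A RNA from 1 sample per condition was analysed here, so no difference has a replicate check, and no p-value is given. R1 mouse embryonic stem cells (mESCs) were grown for 2 days in medium with serum and without feeder cells, and all 3 mESC samples received CHIR99021 at 3 µM, a GSK3 inhibitor, and PD0325901 at 1 µM, a MEK inhibitor. The sample labelled 2i held only these (2i−L in the study, for the absence of LIF), the sample labelled 2i-Jaki also held a JAK inhibitor at 2.0 µM (2iJ), and the sample labelled 2i-Jaki-BMP-Alk5i held in addition BMP4 at 10 ng/ml and the ALK5 inhibitor II at 10 µM (2iJ+B−A). The other sample was TSCs of the F4 line, labelled day 2 but with no treatment given. Each cell type was thus 1 line, and cell line, cell type and medium cannot be told apart in any comparison with TSCs.

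The samples held 33913984 to 36964392 counts on genes. Levels are given as CPM, counts relative to library size, scaled with TMM factors of 0.969 to 1.04, and 3 counts, used as the limit of detection, were worth 0.0799 to 0.0902 CPM. The labels were checked on marker genes. TSCs had 45.1 CPM of Cdx2, 178.9 CPM of Eomes and 298.3 CPM of Elf5, transcription factors of the trophoblast stem state. In the mESC samples Cdx2 was at 2.62 to 33.6 CPM, Eomes at 2.74 to 12.4 and Elf5 at 0.133 or less. Of a list of 8 trophoblast stem markers, Esrrb and Sox2, also pluripotency markers, were lower in TSCs than in any mESC sample. Esrrb was at 247.6 CPM in TSCs against 302 to 578, and Sox2 at 153.6 against 296 to 484. The pluripotency factor Pou5f1 was at 1.34 CPM in TSCs and at 658 to 899 CPM in the mESC samples. Samples were compared by the log2 ratio of CPM + 0.5 over the 14263 genes that reached 1 CPM in any of the samples. A gene was called higher or lower where this ratio was past 1 in size. Folds are ratios of CPM with nothing added, so that for genes with few counts they are larger than the log2 ratio would give. Intervals are 95% Clopper-Pearson intervals and cover counting error only. The median log2 ratio over all genes lay between -0.002 and 0.005 in the 4 comparisons.

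The genes lie in the keratin clusters of chromosomes 11 and 15 (NCBIM37). The type I genes Krt19 (chr11:100002124-100009979), Krt14 (chr11:100064476-100068862), Krt17 (chr11:100117531-100122343), Krt42 (chr11:100124196-100131185), Krt20 (chr11:99289717-99299464) and Krt23 (chr11:99339288-99354451) are all on the minus strand. Krt17 and Krt42 are direct neighbours there, 1852 bases apart. Krt7 (chr15:101241474-101260744, plus strand) and Krt8 (chr15:101827142-101834773, minus strand) are in the type II cluster. Krt18 (chr15:101858647-101862457, plus strand) is the exception, a type I gene beside the type II cluster. It lies 23873 bases from Krt8, in the opposite orientation, with 0 annotated genes in between, so that the genes of the Krt8 and Krt18 filament pair are neighbours. None of the 9 genes overlaps another annotated gene.

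The promoters of Krt8, Krt18 and Krt7, the genes that were higher together in 2iJ+B−A, and of Krt42, which was lower, are shown from RefSeq (GRCm38.p6, a later build than that of the counts). Each runs from 250 bases before to 30 bases after the RefSeq transcript start, 5′ to 3′ on the strand of the gene, and capitals mark motif matches. They lie at chr15:102004313-102004592 (Krt8, minus strand), chr15:102027966-102028245 (Krt18, plus strand), chr15:101412153-101412432 (Krt7, plus strand) and chr11:100269922-100270201 (Krt42, minus strand).
Krt8: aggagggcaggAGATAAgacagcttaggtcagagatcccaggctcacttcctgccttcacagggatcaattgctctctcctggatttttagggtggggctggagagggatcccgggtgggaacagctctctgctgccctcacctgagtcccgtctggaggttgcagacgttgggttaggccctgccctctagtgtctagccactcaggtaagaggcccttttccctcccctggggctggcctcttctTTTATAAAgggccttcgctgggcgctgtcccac
Krt18: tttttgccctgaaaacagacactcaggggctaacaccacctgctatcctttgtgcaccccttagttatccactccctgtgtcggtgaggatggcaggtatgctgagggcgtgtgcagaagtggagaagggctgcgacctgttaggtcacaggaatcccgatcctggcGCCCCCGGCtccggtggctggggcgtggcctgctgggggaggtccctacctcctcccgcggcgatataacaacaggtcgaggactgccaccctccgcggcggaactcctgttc
Krt7: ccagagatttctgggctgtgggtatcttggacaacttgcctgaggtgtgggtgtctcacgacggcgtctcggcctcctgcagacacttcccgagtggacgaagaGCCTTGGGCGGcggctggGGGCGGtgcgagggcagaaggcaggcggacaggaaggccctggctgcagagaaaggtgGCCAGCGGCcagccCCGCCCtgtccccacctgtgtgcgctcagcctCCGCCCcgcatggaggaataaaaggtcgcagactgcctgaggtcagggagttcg
Krt42: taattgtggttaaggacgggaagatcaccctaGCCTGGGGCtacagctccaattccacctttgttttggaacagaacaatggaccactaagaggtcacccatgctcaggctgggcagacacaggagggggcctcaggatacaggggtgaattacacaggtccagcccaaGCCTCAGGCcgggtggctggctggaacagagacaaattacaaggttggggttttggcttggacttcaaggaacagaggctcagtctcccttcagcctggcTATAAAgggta

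Of the 9 genes, 7 had a promoter in the RefSeq table, and Krt19 and Krt17 did not. The motifs searched on both strands, over 250 bases before to 50 after the start, were those of 6 core promoter elements and factor families. The core elements were the TATA box, searched as TATAAA, and the GC box that Sp1 binds, searched as GGGCGG. The AP-2 factors were searched as GCCNNNGGC and the TEAD factors by the letters GGAATG. The motif of GATA factors was searched as AGATAA, and that of the AP-1 family by TGACTCA. Krt7 held 2 AP-2 matches and 4 GC boxes, of which the first AP-2 match and the first GC box overlap. Krt18 held 1 AP-2 match. Krt8 held the TATA letters on both strands in overlap, across the RefSeq transcript start (bases 248 to 255 of the sequence shown). It also held 1 GATA match, and no AP-2 match. Krt42, which had the opposite pattern of expression, held 2 AP-2 matches and the TATA letters at bases 270 to 275. These begin at position 20 after the start, within the transcript. Among the others, Krt20 held 3 TEAD matches, a GATA match and the TATA letters at position -29 from the start. Krt14 held 1 TEAD match, and Krt23 held none. Whether any of these letters act as a TATA box was not tested. No AP-1 match was found in the 7 sequences. Of all 32851 RefSeq promoters of this length, 16.6% held the AP-2 letters, 13.6% the TATA box, 35.7% the GC box, 14.7% TEAD, 11.2% GATA and 5.2% AP-1, so that each of these motifs is common. The AP-2 letters were found in 3 of the 4 promoters printed, in genes that moved in both directions. The promoters of Krt14, Krt20 and Krt23 did not hold them. GC content was 66.3% for Krt7, 61.3% for Krt18, 58.0% for Krt8 and 54.0% for Krt42, beside a median of 52.7% over all promoters.

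**Figure D1:**
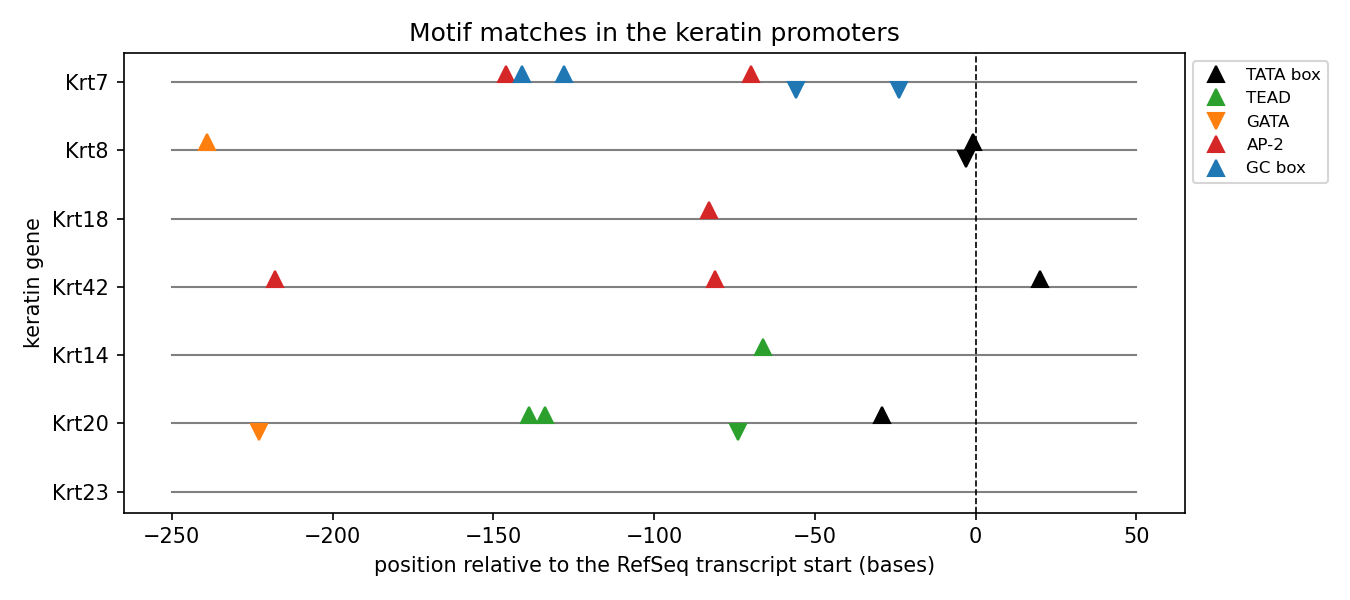
Positions of motif matches (x axis, bases from the RefSeq transcript start, which is the dashed line) in the promoters of 7 keratin genes (y axis), with upward triangles for the strand of the gene and downward triangles for the opposite strand. Krt7 holds 4 GC boxes and 2 AP-2 matches, and no motif is shared by Krt8, Krt18 and Krt7.

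Krt8, Krt18, Krt7 and Krt19 had the same order of samples: lowest in 2i−L, slightly higher in 2iJ, higher again in 2iJ+B−A and highest in TSCs. Krt8 was at 92.3 CPM in 2i−L, 133.7 CPM with the JAK inhibitor (2iJ), 552.6 CPM with BMP4 and the ALK5 inhibitor as well (2iJ+B−A), and 883.5 CPM in TSCs. Krt18, its filament partner, was at 80.8, 104.5, 521.4 and 1395 CPM in the same order. By level, Krt8 moved from rank 2590 of 14263 genes in 2i−L to rank 227 in 2iJ+B−A and, in TSCs, to rank 91, and Krt18 from rank 2951 to 251 and 35. Krt7 was at 6.58, 8.85, 40.2 and 184.8 CPM. Krt19, the smallest keratin, which lacks most of the tail of the others, was at 14.8, 19.2, 43.4 and 215 CPM. All 4 genes were already expressed in 2i−L, with 219 counts or more each.

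Krt42 and Krt17, the neighbours on chromosome 11, were highest in 2i−L. Krt42, a type I keratin of the mouse whose human counterpart is a pseudogene, was at 23.3 CPM in 2i−L, 10 CPM in 2iJ (345 counts), 0.319 CPM in 2iJ+B−A (12 counts) and 0.598 CPM in TSCs (21 counts). Krt17, known from stressed and wounded epidermis and from skin appendages, had 54, 19, 9 and 0 counts, and its highest level was 1.62 CPM in 2i−L. Krt20, a keratin of gut and bladder lining, had 13, 25 and 23 counts in the mESC samples and 308 counts (8.77 CPM) in TSCs. Krt14, the partner of Krt5 in basal epidermis, had 14, 15, 5 and 18 counts, and Krt23 had 2, 4, 2 and 0. Krt14 and Krt23 stayed under 1 CPM in every sample and were left out of the calls, so 7 of the 9 genes were compared. Krt17 passed the minimum only through 2i−L and Krt20 only through TSCs, so counts over the 7 genes describe genes chosen partly by where they were high.

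**Figure D2:**
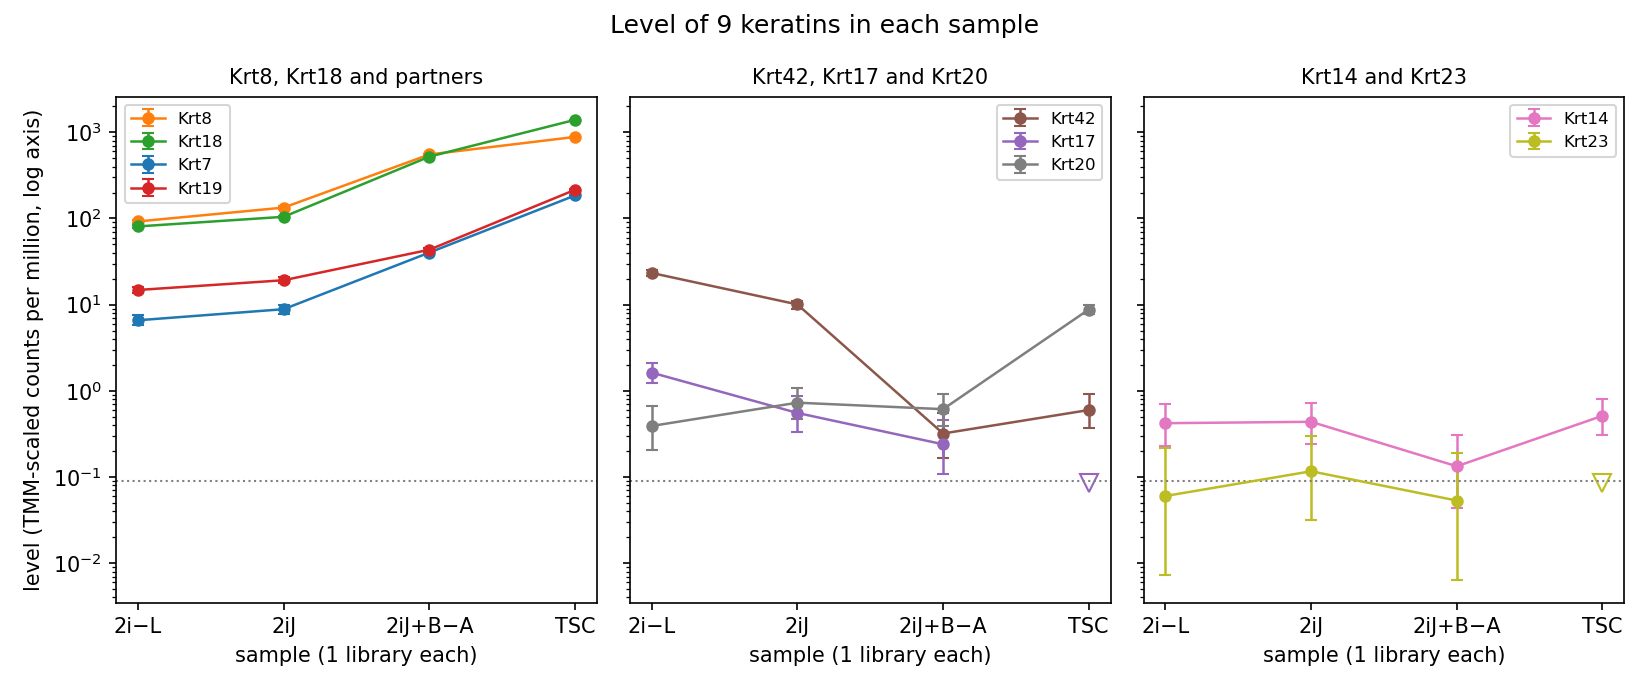
TMM-scaled CPM (y axis, log scale) of the 9 keratins in each of the 4 samples (x axis), with exact 95% Poisson intervals as error bars. Open triangles stand at 3 counts for samples with 0 counts, the dotted line marks the highest detection limit (0.0902 CPM), and lines join the values of 1 gene for the eye only. Krt8, Krt18, Krt7 and Krt19 are highest in TSCs, and Krt42 and Krt17 in 2i−L.

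Between genes, levels were compared per kilobase of the longest coding transcript. In every sample Krt18 and Krt8 were first and second. The values were 57.7 (exact 95% Poisson interval 55.6 to 60.0) and 51.2 (49.4 to 53.0) CPM per kb in 2i−L, and 996.1 and 489.5 in TSCs. In 2iJ they were 74.65 and 74.1 with overlapping intervals, so that these neighbours in the order did not differ beyond counting error there. The next gene in order changed with the medium: it was Krt42 in 2i−L (15.1 CPM per kb, against 9.39 for Krt19) and Krt19 in the other 3 samples (12.2, 27.5 and 136 CPM per kb). Krt42 came after Krt19 in 2iJ, at 6.51, and after Krt20 in both 2iJ+B−A and TSCs, at 0.207 and 0.388. Its interval overlapped that of the next gene below in both, and in 2iJ+B−A also that of Krt20 above it, so that its place there is within counting error. Krt7 came after Krt42 and Krt19 in 2i−L and 2iJ, at 1.61 and 2.16, and directly after Krt19 in the other 2 samples, at 9.82 and 45.1. The length of Krt7 is uncertain, since its longest coding transcript has 4094 bases, of which 1374 are coding, and its annotated exons together have 7049. With all exons as the length its level in TSCs was 26.2 CPM per kb.

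The ratio of Krt18 to Krt8 per length was 1.13 (1.07 to 1.19) in 2i−L, 1.01 (0.964 to 1.05) in 2iJ and 1.22 (1.19 to 1.24) in 2iJ+B−A, and it was 2.04 (2.01 to 2.06) in TSCs. Only 2iJ thus had equal RNA of the pair within counting error. Krt18 was above Krt8 by a smaller margin in 2i−L and 2iJ+B−A, and by the largest in TSCs. Summed over all keratins analysed, type I RNA per length was 1.62 times type II RNA in 2i−L, 2.13 times in TSCs, and 1.27 times in each of the other 2 samples. Within type I, Krt18 made up 66.9%, 76.7%, 92.6% and 87.4% in this order of samples. Krt42 made up 17.5% of type I RNA in 2i−L and 6.7% in 2iJ, but 0.0515% in 2iJ+B−A and 0.034% in TSCs. Within type II, Krt8 made up 91.5% or more in every sample, and Krt7 3.03%, 2.82%, 3.11% and 8.43%. With all annotated exons as the length, Krt7 made up 1.78%, 1.66%, 1.83% and 5.08%. Krt8 and Krt18 together were 88.7% of keratin RNA in TSCs, against 78.1% in 2i−L, 85.6% in 2iJ and 94.4% in the 2iJ+B−A sample. The summed keratin level was 139 CPM per kb in 2i−L, 174 CPM per kb in 2iJ, 718.5 CPM per kb in 2iJ+B−A, and 1675 CPM per kb in TSCs.

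**Figure D3:**
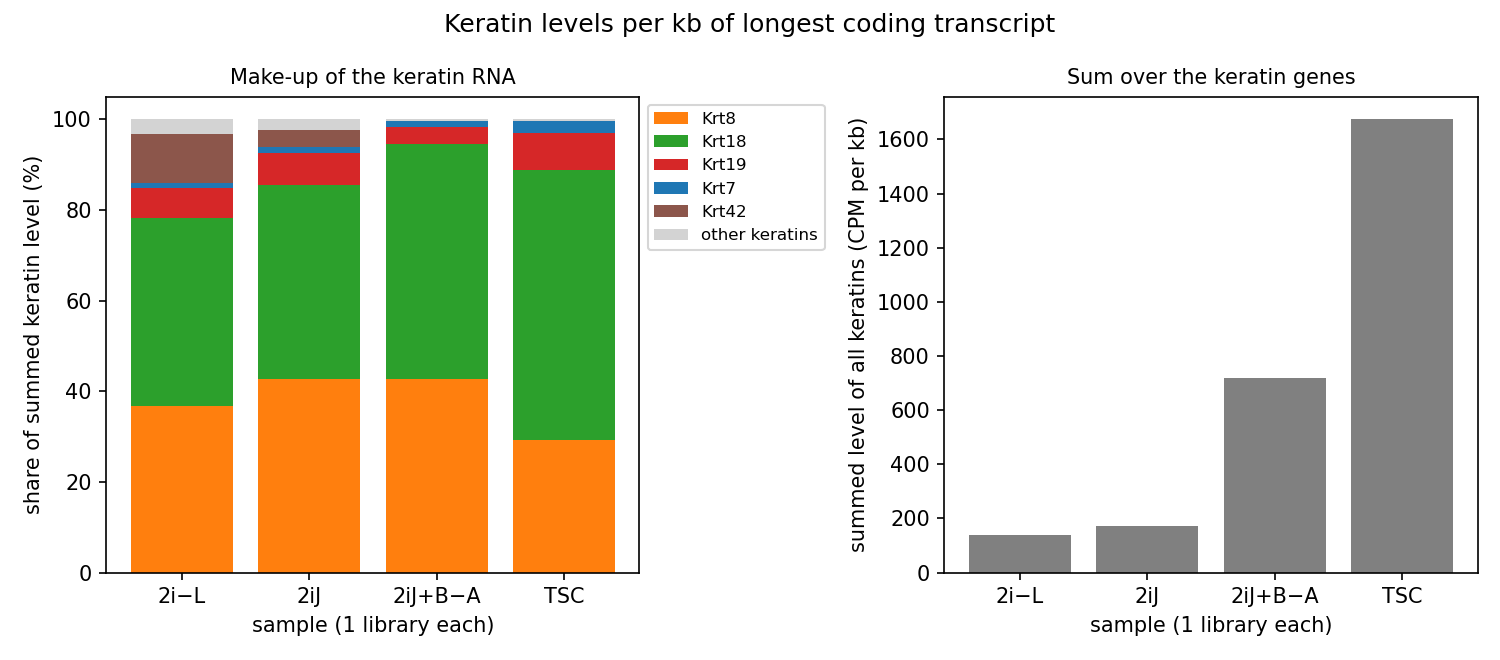
Left, share of the summed keratin level (y axis, %) held by Krt8, Krt18, Krt19, Krt7, Krt42 and all other keratins in each sample (x axis), from CPM per kb of the longest coding transcript. Right, that sum in CPM per kb. Krt42 holds 10.8% of the sum in 2i−L and 3.75% in 2iJ and is too small to see in the other samples, while the sum is highest in TSCs (1675).

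The step from 2i−L to 2iJ, which adds the JAK inhibitor, was small for most of the 9 genes. Of the 7 compared, 0 were called higher (1.23% of all genes were) and 2 lower (0.918% of all genes). Krt17, among these 2, passed the minimum only through 2i−L. The log2 ratios of Krt8, Krt18, Krt7 and Krt19 were 0.53 (0.47 to 0.60), 0.37, 0.40 and 0.365, from 1.29 to 1.45-fold. Krt42 fell past the limit, with a log2 ratio of -1.17 (-1.35 to -0.996). In CPM it was 2.32-fold lower. Krt17 was at -1.01 (-1.46 to -0.52), from 54 to 19 counts, and lost the call when library totals alone were used for scaling (-0.99). Krt20 had a log2 ratio of 0.46, with an interval from -0.07 to 0.94 that includes 0.

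With BMP4 and the ALK5 inhibitor added (2iJ+B−A against 2iJ), 4 of the 7 genes were called higher, beside 5.81% of all genes, and 1 lower, beside 3.17%. Krt18 was 4.99-fold higher (4.81 to 5.17), Krt7 4.54-fold (4.01 to 5.15), Krt8 4.13-fold (4.0 to 4.27) and Krt19 2.26-fold (2.06 to 2.48). The intervals of Krt18 and Krt8 do not overlap, and that of Krt7 overlaps both. The fold of Krt19 lay below those of the other 3 genes, outside their intervals. Krt42 went the other way, from 345 to 12 counts, which is 31.5-fold in CPM (17.8 to 61.5). With 0.5 CPM added its log2 ratio was -3.69 and with 2 CPM added -2.38, so that the size of this change, but not its call, depends on the value added. Its neighbour Krt17 had a log2 ratio of -0.51, with an interval that just includes 0 (-0.94 to 0.003), and Krt20 one of -0.14 (-0.63 to 0.35). Against 2i−L, the mESC sample with no JAK inhibitor, the folds were 5.98 for Krt8, 6.45 for Krt18, 6.1 for Krt7 and 2.93 for Krt19. In that comparison Krt42 was 73.0-fold lower and Krt17 6.78-fold lower (9 against 54 counts), so that Krt17 was then called as well. In a bulk sample a change in the share of keratin-rich cells and a change of RNA per cell cannot be told apart.

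TSCs differed from 2iJ at more of the 9 genes, in a comparison where many genes differed. Of the 7 genes, 5 were called higher (19.4% of all genes) and 2 lower (17.6%). Krt20, among these 5, passed the minimum only through TSCs. In CPM, Krt7 was 20.9-fold higher (18.6 to 23.5), Krt18 13.3-fold (12.9 to 13.8), Krt19 11.2-fold (10.3 to 12.1) and Krt8 6.61-fold (6.41 to 6.82). Krt20 was 12.1-fold higher (8.01 to 18.9), with an interval that spans those of Krt18 and Krt19, and its log2 ratio with 0.5 CPM added was 2.92, below that of Krt19 (3.45). Krt42 was 16.8-fold lower (10.8 to 27.5), and Krt17, with 0 counts in TSCs, was at least 6.47-fold lower, from the limit of 3 counts.

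Set directly against 2iJ+B−A, TSCs had more RNA of 4 of the 7 genes by the call limit (16.4% of all genes were called higher), and 0 were called lower (16.2%). Krt20, among these 4, passed the minimum only through TSCs. Krt8 was closest between these samples, 1.6-fold higher in TSCs (1.57 to 1.63) and short of the limit at a log2 ratio of 0.68. Krt18 was 2.67-fold higher (2.63 to 2.72), Krt7 4.6-fold (4.35 to 4.87), Krt19 4.95-fold (4.7 to 5.23) and Krt20 14.3-fold (9.38 to 22.9). Krt42 was low in both, with a log2 ratio of 0.42 and an interval of -0.09 to 0.88. Krt17 was at least 2.8-fold lower in TSCs. The 5 genes that were high in TSCs thus differed in how far the 2iJ+B−A sample was from the TSC level, from Krt8 (1.6-fold below) to Krt20, which had no higher level in 2iJ+B−A than in 2iJ. The comparisons with TSCs share the TSC sample, and those with 2iJ share the 2iJ sample.

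**Figure D4:**
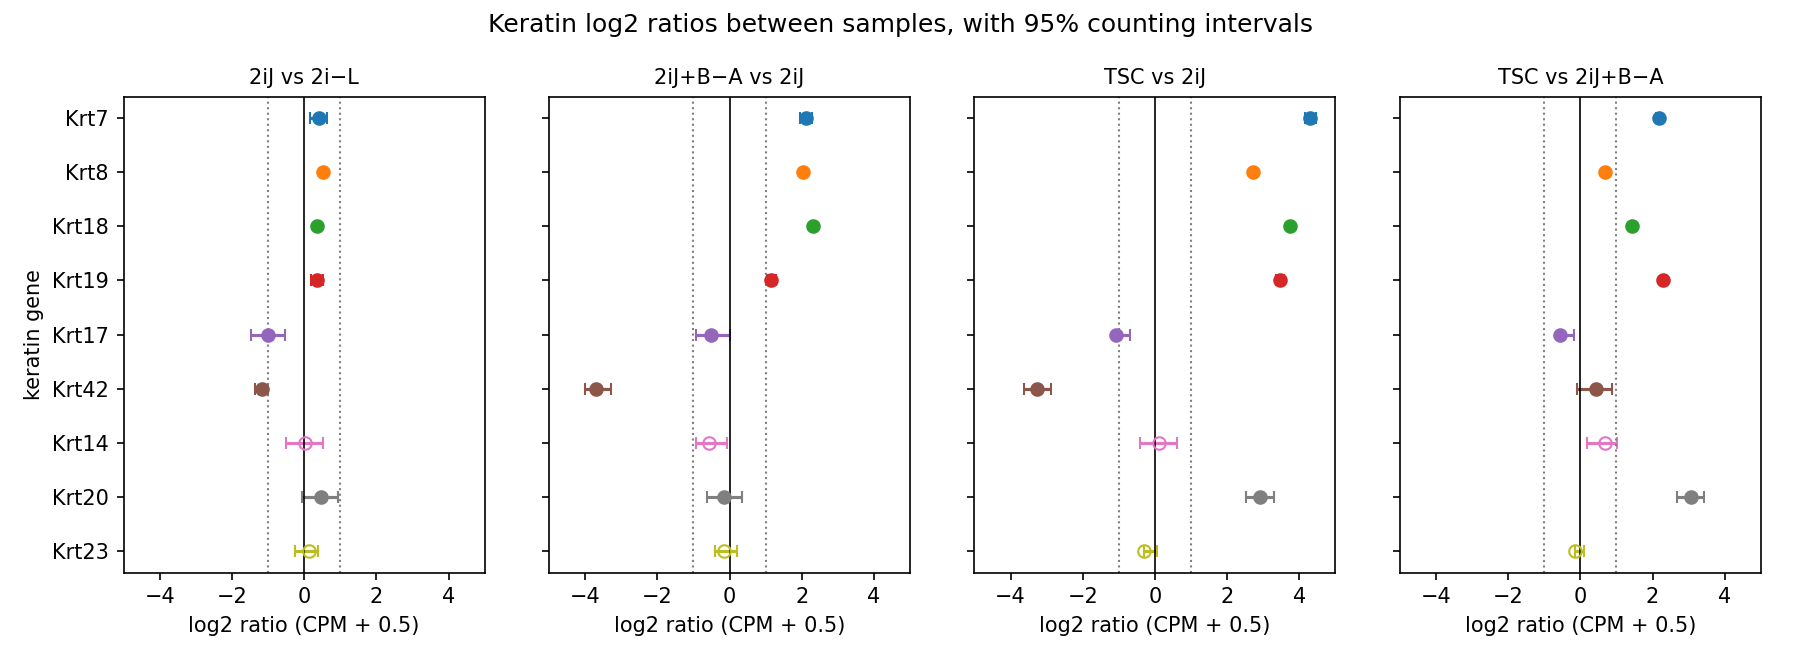
Log2 ratios of CPM + 0.5 (x axis) of the 9 keratins (y axis) in the 4 comparisons, with 95% Clopper-Pearson intervals. Open circles are Krt14 and Krt23, which were under 1 CPM in every sample, and dotted lines mark the call limit of 1 in size. Krt8, Krt18, Krt7 and Krt19 are right of the limit in 2iJ+B−A vs 2iJ and in TSC vs 2iJ, and Krt42 is left of it in both.

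The 9 genes held nearly all keratin RNA. A list of 55 keratin symbols was used, of which 52 were found, 28 of type I and 24 of type II, and the 9 genes made up 97.93% (2i−L) to 99.87% (TSCs) of the summed level per length. Of the 52 genes, 15 had 0 counts in every sample and 31, those 15 included, had 3 counts or fewer in every sample. Outside the 9 genes only 3 reached 1 CPM, all of type I. Krt222, a short keratin-like gene, had 98, 128, 21 and 0 counts, so that between 2iJ and 2iJ+B−A it moved as Krt42 did (log2 ratio -1.997). Krt10, a keratin of differentiated epidermis, had 38 to 62 counts, fewer than the 70 to 85 counts on the opposite strand of the same gene. Krt16 had 36 counts in TSCs and 6 or fewer elsewhere. Among markers of stratified epithelium, Krt5 had 0 to 8 counts and Krt1 0 to 6, and the epidermal regulator Trp63 was at 0.142 CPM in TSCs and 0.301 to 0.905 CPM in the mESC samples. The 9-gene list of surface ectoderm and basal epidermis summed to 43.9, 51.4, 84.75 and 122 CPM in the order of samples, and 1 to 3 of its genes were at or under 3 counts in each sample, with Grhl3 (19.3 to 54.1 CPM), Wnt6 (4.06 to 62.1) and Tfap2a (3.33 to 41) holding most of it. Krt15, also on this list, had 2, 31, 26 and 30 counts and stayed under 1 CPM. Of the 4 listed genes that reached 1 CPM, 2 were called higher and 0 lower in 2iJ+B−A against 2iJ (all genes 5.81% and 3.17%). In TSCs against 2iJ 2 were higher and 1 lower (all genes 19.4% and 17.6%).

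Other cell types that hold simple keratins were checked by marker lists, whose part in the keratin levels was not tested. The primitive endoderm list (7 genes analysed, 0 of them at or under 3 counts in any sample) summed to 6.19, 6.49, 25.7 and 36.3 CPM. In TSCs Gata4 held 23.5 CPM of this sum. In 2iJ+B−A against 2iJ, 4 of the 6 genes at 1 CPM or more were called higher and 0 lower (all genes 5.81% and 3.17%). Their median log2 ratio was 1.32. Pdgfra (10.4 CPM) and Gata6 (6.97 CPM) were above Gata4 (3.91 CPM) in the 2iJ+B−A sample. For TSC against 2iJ, 3 were higher and 0 lower (all genes 19.4% and 17.6%), with a median of 1.24. Sox17 reached 1 CPM only in 2iJ+B−A, Foxa2 and Amn only in TSCs, and Gata6 only in these samples. These counts and medians thus describe genes chosen partly by where they were high. Only Sox17 was lower in TSCs than in 2iJ (0.142 against 0.408 CPM), and it was at 2.32 CPM in 2iJ+B−A. The list of mesoderm and amnion (7 genes, Mesp1 at or under 3 counts in every sample) summed to 12.8, 14.8, 124.5 and 415 CPM. Hand1, also a trophoblast gene, held 103.5 and 383 CPM of the sums of the last 2 samples. Of the 5 genes that reached 1 CPM, 2 were called higher in 2iJ+B−A than in 2iJ and 1 lower (all genes 5.81% and 3.17%). The lower gene was T, at 0.16 against 2.85 CPM (log2 ratio -2.35), and the median log2 ratio was -0.21. The differentiated trophoblast list (8 genes) summed to 3.49, 8.82, 53.8 and 19.7 CPM. Its giant cell and spongiotrophoblast markers Prl3d1, Prl2c2, Prl3b1 and Tpbpa were at 0 or 1 count in every mESC sample. TSCs had 55, 11, 1 and 3 counts of them. Against 2iJ, 3 of the 5 genes reaching 1 CPM were higher in 2iJ+B−A and 0 lower (all genes 5.81% and 3.17%). These were Gcm1 (28 against 5.62 CPM), Ascl2 (22.65 against 2.42) and Synb (2.69 against 0.58). TSCs had 3 higher than 2iJ, Prl3d1, Syna and Ascl2, and 1 lower (all genes 19.4% and 17.6%). The lower gene was Gcm1, at 0.399 CPM (log2 ratio -2.77). Prl3d1 and Syna reached 1 CPM only in TSCs, and Synb only in 2iJ+B−A. The fibroblast list, for feeder cells, was lowest in TSCs (7.69 CPM, with Col1a2, Dcn and Lum at 0 counts) and 30.4 to 48.0 CPM in mESCs. The pluripotency list summed to 5220, 4588, 2864 and 540 CPM, and none of its 8 genes was at or under 3 counts in any sample. In 2iJ+B−A against 2iJ, 1 was called higher, Klf4 (73.1 against 32.2 CPM), and 2 lower (all genes 5.81% and 3.17%). For TSCs against 2iJ 0 were higher and 7 lower (all genes 19.4% and 17.6%). Esrrb (247.6 CPM), Sox2 (153.6) and Zfp42 (122.9) held most of the TSC sum.

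Keratin filaments are anchored to desmosomes, the cell junctions that Dsp links to the filaments. Of 16 desmosome genes 8 reached 1 CPM in some sample. In 2iJ+B−A against 2iJ, where 5.81% of all genes were called higher and 3.17% lower, 1 of these 8 was called higher and 0 lower. It was the desmosomal cadherin Dsc2, at 25.4 against 11.2 CPM (log2 ratio 1.15). Alone among the 8, Dsp and Jup had ratios below 0. Dsp was at 54.9 against 57.9 CPM (-0.08), and Jup at 66.4 against 130.9 CPM (-0.97), short of the call limit. In TSCs against 2iJ 6 were higher and 0 lower, beside 19.4% and 17.6% of all genes, with Dsp at 416 against 57.9 CPM (2.83), the plakophilin Pkp3 at 23.5 against 2.94 CPM (2.80) and Dsc2 at 47.7 against 11.2 CPM (2.04). The median log2 ratio of the 8 genes was 0.62 and 1.75. Each of these 8 genes was above 1 CPM in every sample, so none passed the minimum through TSCs alone. The 8 desmosome genes left out were under 1 CPM in every sample.

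Of 17 linker and keratin-binding genes 15 were found and 14 reached 1 CPM (Eppk1 and Flg were not analysed here). In 2iJ+B−A 2 of the 14 were called higher than in 2iJ and 0 lower (all genes 5.81% and 3.17%), of which the envelope linker Ppl was at 10.9 against 4.31 CPM (log2 ratio 1.25). In TSCs 6 were higher and 2 lower (all genes 19.4% and 17.6%). The plakin Plec, which ties keratins to hemidesmosomes and to other filaments, was at 348 against 48.7 CPM (2.83), Ppl at 30 against 4.31 CPM (2.67), and Fam83h, a keratin-binding protein, at 40.4 against 7.08 CPM (2.43). Dst, another plakin, was lower, at 233 against 577.5 CPM (-1.31).

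The other intermediate filament genes moved in both directions. Of 12 that reached 1 CPM, 3 were called higher and 1 lower in 2iJ+B−A against 2iJ, beside 5.81% and 3.17% of all genes, with a median log2 ratio of 0.22. The neurofilament genes Nefm (2.19) and Nefl (1.64) and the nuclear lamin Lmna (1.62) were higher, and Ina, a neuronal filament gene, was lower at 12.9 against 85.2 CPM (-2.68). In TSCs against 2iJ 4 were higher and 5 lower, beside 19.4% and 17.6% of all genes, with a median of -0.46. Lmna (3.39), the muscle filament gene Des (2.60) and Prph (2.54) were higher, and Ina (-5.61), Vim (-2.27), the main filament gene of mesenchymal cells, and Synm (-2.03) lower.

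The last list held regulators of trophectoderm and epithelia, transcription factors apart from the splicing regulators Esrp1 and Esrp2, with 21 of 23 genes at 1 CPM or more. In 2iJ+B−A against 2iJ 10 were called higher and 1 lower (median log2 ratio 0.81), beside 5.81% and 3.17% of all genes. Hand1 was at 103.5 against 1.31 CPM (5.84), Gata2 at 236 against 23.1 CPM (3.33), and Cdx2, the trophectoderm regulator, at 33.6 against 6.7 CPM (2.245). Eomes was lower, at 2.74 against 10.7 CPM (-1.78). In TSCs against 2iJ 16 were higher and 3 lower (median 1.58), beside 19.4% and 17.6% of all genes. Elf5 reached 1 CPM only in TSCs and Ovol1 only in 2iJ+B−A, so these counts include genes chosen by where they were high. Elf5 was at 298 CPM in TSCs and had 2 counts in 2iJ and 5 in 2iJ+B−A, and Hand1 (7.73) and Eomes (4.01) were higher as well. Klf4 (-2.39), Tfap2a (-2.005) and Elf3 (-1.57) were lower. Tfap2a, an AP-2 factor of surface ectoderm, was at 11.7 CPM in 2i−L and 14.9 CPM in 2iJ, at 41 CPM in 2iJ+B−A, and at 3.33 CPM in TSCs, the lowest of the 4 samples. Tfap2c, its relative in trophoblast and pluripotent cells, was at 153.7, 142, 113.5 and 340 CPM.

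The genes whose profiles over the 4 samples were most like those of the keratins were found by Euclidean distance between log2(CPM + 0.5) values centred on their mean, over 10267 genes with at least 10 CPM in some sample. With 4 samples such a distance is only a description. Among the genes nearest to Krt8 were Alcam (distance 0.283) and Gprc5c (0.321; 8.75, 13.6, 50.7 and 110 CPM). Nearest to Krt18 were Arhgap31 (0.0637), Rtn1 (0.134) and Tbx15 (0.178). Krt7 was nearest to Slco2a1 (0.121), Htr1d (0.189) and Pcdh1 (0.243), and Krt19 to Kctd1 (0.159), AI661453 (0.163) and Atp8b1 (0.167). Krt18 itself was 0.776 from Krt8, at rank 43 of the distances from Krt18, and 0.582 from Krt7, at rank 24, so that the filament partners were not each other's nearest profiles. Krt42 had no close match, with Prdm1 (1.49) and A2m (1.69) among the nearest. Prdm1 was at 48.7, 53.6, 5.14 and 1.99 CPM, so that it was not lower in 2iJ than in 2i−L as Krt42 was.

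Reads of near-identical copies can be lost, because STAR counts only read pairs with 1 place in the genome. Transcripts of the 9 genes were searched against NCBIM37 for other places with at least 90% identity over 100 bases or more. Krt8 has 1 such copy, 97.9% identical over 1734 bases, on chromosome 7 within Nlrp4e, a gene that had 4 counts or fewer in each sample. Krt18 has a copy on chromosome 13 outside annotated genes, 90.5% identical over 1385 bases. For both genes some read pairs may be missing, which can lower the level and touch the ratio of Krt18 to Krt8. Of the Krt14 transcript 73.9% and of Krt17 41.1% matched elsewhere, largely in Krt16, Krt17, Krt14 and Krt42, so that their low counts are uncertain. The share was 19.5% for Krt42, 10.0% for Krt19, 7.1% for Krt7 (a dispersed repeat) and 0 for Krt20 and Krt23. Adding the counts of annotated near copies, those of Nlrp4e to Krt8 and of Krt16 to Krt14, called Krt14 higher in TSCs than in 2iJ or 2iJ+B−A (6 and 5 genes higher in place of 5 and 4), from the 36 counts of Krt16, and left the other counts of called genes as they were.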

How the data were processed

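RNA-seq of 4 samples, 1 per condition, was analysed. Per the labels, directional poly-A libraries were sequenced as paired reads of 126 bases. The authors trimmed reads with TrimGalore, mapped them to NCBIM37 with STAR 2.4.2a, and deposited unnormalized counts of read pairs per gene. The annotation release is not given in the sources used here. The paper's ComBat adjustment is not in these counts. On genes lay 82.2% to 83.6% of the listed pairs, and 6.72% to 7.01% mapped to several places and were not counted.

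The reverse-stranded counts were used, 29.1 to 32.1 times those of the opposite strand. Of 37620 identifiers, 37205 had a symbol in the NCBIM37 annotation. TMM factors came from edgeR 4.0.16, which was used for scaling only, since no model can be fitted with 1 sample per group. A pseudocount of 0.5 CPM and a minimum of 1 CPM in at least 1 sample were used. Listed symbols missing from the annotation were looked up among RefSeq synonyms (GRCm38.p6). Near copies were searched with BLAST+ 2.17.0. The ratios and intervals were tested on simulated data. The 9 genes and all gene lists were chosen with earlier results of these data known.

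Genes named were the 9 keratins, other keratins with at least 1 CPM, and, from each list, genes at 10 CPM or more that passed the call limit in 2iJ+B−A or TSC against 2iJ, at most 3 per direction. For 5 keratins the 3 genes with the nearest profiles were named, of which some are not reported here. Marker genes of the fixed lists were named as label checks, and Tfap2c and Jup after their values were seen. Alternatives were unstranded counts, DESeq2 1.42.0 size factors, library totals, totals without mitochondrial genes, other filters, pseudocounts and call limits, added near copies and 2i−L as reference.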

Additional observations from a re-analysis of the deposited data

How the results depend on the processing

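Of 92 alternative counts of called keratins, 80 stayed within 1.5 times the reported count. Among 270 alternative log2 ratios of single keratins, 0 of those called changed sign, but 55 lay outside the counting interval of the reported ratio. In 2iJ against 2i−L these were 2 of 63, and in 2iJ+B−A against 2iJ 12 of 72. In TSC against 2iJ they were 24 of 72, and in TSC against 2iJ+B−A 17 of 63. The reported counts of genes higher, 4 in 2iJ+B−A against 2iJ, 5 in TSC against 2iJ and 4 in TSC against 2iJ+B−A, were within 1.5 times under each alternative. In 2iJ against 2i−L, 1 gene was higher at a log2 limit of 0.5 (0 reported), and of the 2 lower genes 1 was left with a filter of 5 CPM, with a pseudocount of 2 CPM and with library totals in place of TMM, and 0 at a limit of 1.5. In 2iJ+B−A against 2iJ, 2 genes in place of 1 were lower with 2i−L as the reference and at a limit of 0.5. In TSC against 2iJ, 1 gene in place of 2 was lower with a filter of 5 CPM, a limit of 1.5 or a pseudocount of 2 CPM. In TSC against 2iJ+B−A, 1 gene in place of 0 was lower at a limit of 0.5 and with a pseudocount of 0.1 CPM. The filter, the limits and the pseudocounts act by construction, and the cause of the other shifts was not tested. With other pseudocounts, library totals or 2i−L as reference, the gene whose call changed was Krt17. In 2iJ against 2i−L its log2 ratio was -0.505 with 2 CPM added and -0.992 with library totals. The median log2 ratio of all genes was at most 0.077 under any scaling. No paired analysis was possible because each group has 1 sample, and no replicate could be left out. Depth limits Krt17, Krt14 and Krt23, which had 54 counts or fewer.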
